A study of Mus musculus with 6 samples.

Results

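Elastic fibre genes are described here in cheek skin of mice. They are 10 genes, Eln, Fbn1, Fbn2, Fbln1, Fbln5, Emilin1, Lox, Loxl1, Mfap4 and Mfap5, found by their symbols among the 19309 genes of the deposited expression table. RNA of 6 libraries came from 3 C57BL/6 mice of 6 to 8 weeks, 1 library for each cheek. The AEW group holds the right cheeks, shaved and wiped 2 times a day with an equal mixture of acetone and ether for 30 s and next with water for a further 30 s, a model of dry, itching skin. The vehicle group holds the left cheeks of the same 3 mice, which were wiped with distilled water alone for 60 s. Tissue was taken on day 12 of treatment. AEW was on the right side in every mouse, so side and treatment cannot be told apart. The series title names the effect of MMP9, the matrix metalloproteinase gelatinase B, but no label sets MMP9 apart between samples, and the comparison made here is AEW skin over vehicle skin.

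Elastic fibres give skin its recoil. They consist of a core of cross-linked elastin laid down on a scaffold of fibrillin microfibrils, with fibulins and emilin at the boundary between them and lysyl oxidases that join the elastin chains. Fibroblasts of the dermis make most of these proteins, and vascular smooth muscle cells make them in vessel walls.

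The 6 libraries held between 18449207 and 19506491 estimated counts. Levels below are CPM, counts scaled to library size by TMM, where 1 gene is compared between libraries, and the deposited TPM, which is also scaled for transcript length, where genes are compared with each other. Markers of dermis and epidermis were present in every library. Summed over 8 fibroblast markers the level ran from 4675 to 6159 TPM in AEW skin and from 4726 to 6210 TPM in vehicle skin. The sum held shifts in opposite directions. In mouse 1 Dcn stood at 1757 TPM in the AEW cheek and 3559 TPM in the vehicle cheek, and Col1a1 at 1094 and 293 TPM. The TPM of the groups did not overlap for either gene. These 2 genes were chosen after their values were seen. Skeletal muscle was also present, and its 12 markers summed to between 15936 and 21922 TPM in AEW skin and between 38678 and 53281 TPM in vehicle skin, without overlap. The sum of 7 keratinocyte markers was higher, from 16489 to 21397 TPM in AEW skin and from 9032 to 14165 TPM in vehicle skin, although 1 of them, Krt15, was lower in the AEW cheek of every mouse. The AEW libraries differed widely in hair follicle transcripts. The 8 markers of growing hair follicle epithelium summed to 1770, 19.0 and 458 TPM in the AEW libraries of mice 1, 2 and 3, against 221 to 257 TPM in vehicle skin. Mice 1 and 3 thus lay above the vehicle range and mouse 2 below it. In a bulk sample, fewer cells of a type and less RNA per cell cannot be told apart, and the part of these shifts in the results below was not tested.

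None of the 10 elastic fibre genes passed the test. All 10 were tested with the edgeR quasi-likelihood model, and at an adjusted p threshold of 0.05 it called 0 as higher and 0 as lower, against 11.6% of the 15109 genes tested (4.85% higher and 6.8% lower). The same edgeR fit gave 4 members an unadjusted p under 0.05, 3 higher and 1 lower, against 30.8% of all tested genes. With the mouse as a block 0 members were called, against 5.88% of all genes. DESeq2 called 3, Fbn2 and Mfap4 as higher and Mfap5 as lower, against 18.6% of the genes it tested. The median log2 fold change over the 10 members was 0.13, against 0.01 over all tested genes, and without the AEW library of mouse 1 these were 0.07 and -0.02. Of the 10 members, 4 were higher in the AEW cheek of every mouse, 1 was lower in every mouse and 5 were mixed, against 25.3% and 26.9% of all tested genes that were higher or lower in every mouse.

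**Figure D1:**
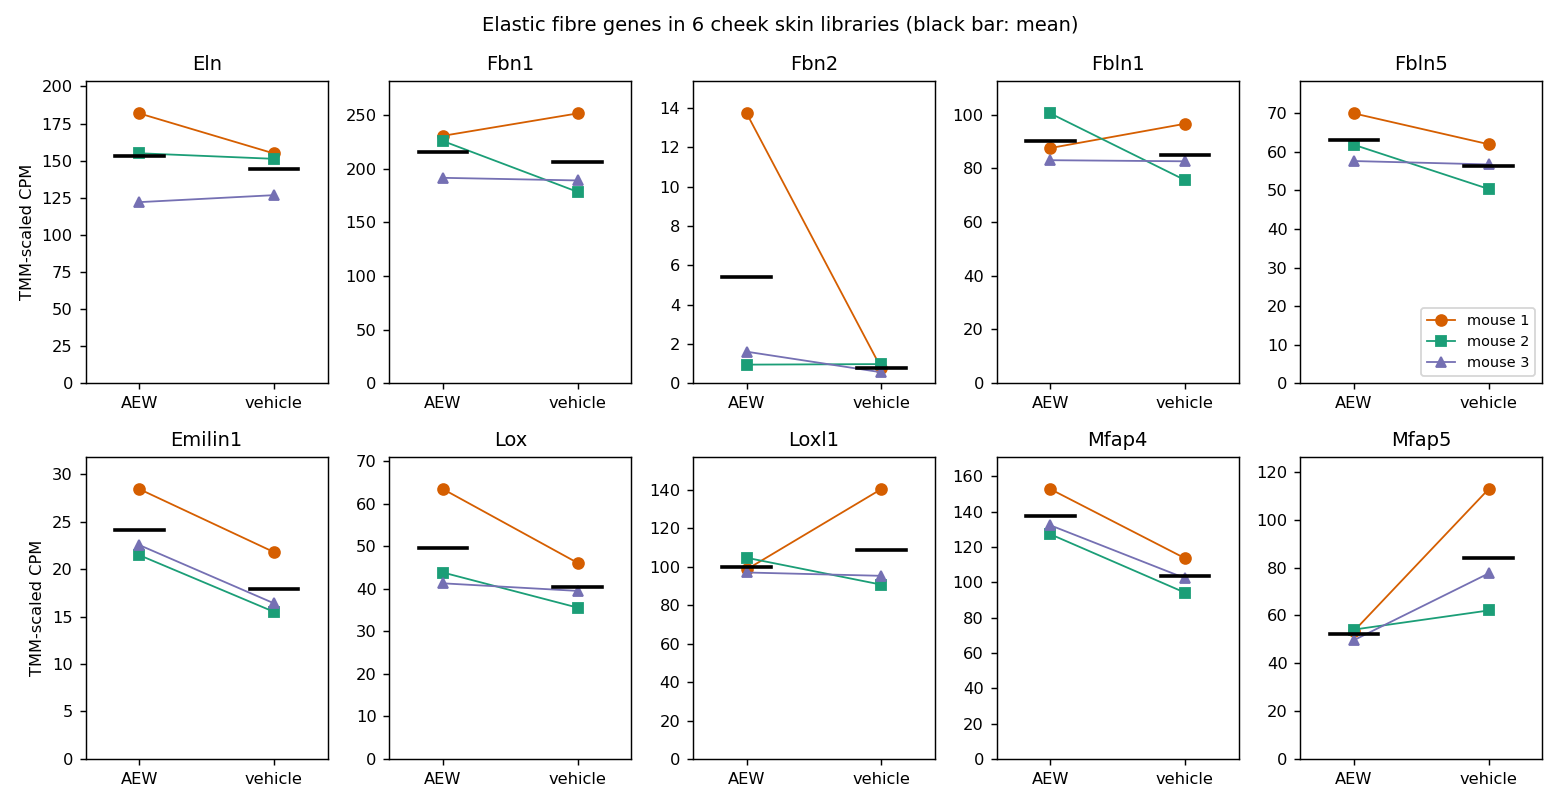
TMM-scaled CPM (vertical axes, from 0) of each elastic fibre gene in AEW and vehicle cheeks, with 1 coloured line per mouse and a black bar at the group mean. Mfap4 is higher and Mfap5 lower in the AEW cheek of every mouse with no overlap of the groups. Fbn2 is far higher in the AEW cheek of mouse 1 than in any other library, and Eln and Fbn1 overlap.

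For elastin itself the difference was smaller than its error. Eln (gene 13717), which encodes the elastin precursor tropoelastin, stood at 182, 155 and 122 CPM in the AEW cheeks of mice 1, 2 and 3, against 155, 151 and 127 CPM in their vehicle cheeks. The AEW cheek was thus higher in mice 1 and 2 and lower in mouse 3, and the groups overlapped. The means were 153 ± 30.0 CPM in AEW skin and 144 ± 15.3 CPM in vehicle skin (SD, n = 3 each). For Eln the log2 fold change was 0.08 ± 0.16 (SE), its 95% interval running from -0.29 to 0.46 (edgeR adjusted p = 0.76). Without the AEW library of mouse 1, the highest of the 6, the value was -0.068.

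The fibrillins form the microfibril scaffold, with Fbn1 as the main form of adult tissue and Fbn2 best known from development. Fbn1 (gene 14118) stood at 231, 226 and 192 CPM in the AEW cheeks of mice 1, 2 and 3, against 252, 178 and 189 CPM in the vehicle cheeks. The groups overlapped, and the AEW cheek was the lower of the 2 in mouse 1 and the higher in mice 2 and 3. Fbn1 had a log2 fold change of 0.07 with a 95% interval from -0.30 to 0.43 (edgeR adjusted p = 0.806).

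The bases upstream of the start of Fbn1, the main scaffold gene, and of Emilin1, a member taken up below, are shown as examples of the members' promoters. Both sequences are from RefSeq, 250 bases ending at the start, with capitals marking any match to the motifs searched. Fbn1 lies at chr2:125506439-125506688 on the minus strand and Emilin1 at chr5:30913536-30913785 on the plus strand of GRCm38.p6, an older build than the one the submitters name.
Fbn1: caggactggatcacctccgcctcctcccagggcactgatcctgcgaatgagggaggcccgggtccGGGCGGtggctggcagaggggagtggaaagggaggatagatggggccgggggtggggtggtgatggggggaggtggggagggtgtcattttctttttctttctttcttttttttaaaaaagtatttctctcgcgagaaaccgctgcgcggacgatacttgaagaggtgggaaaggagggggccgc
Emilin1: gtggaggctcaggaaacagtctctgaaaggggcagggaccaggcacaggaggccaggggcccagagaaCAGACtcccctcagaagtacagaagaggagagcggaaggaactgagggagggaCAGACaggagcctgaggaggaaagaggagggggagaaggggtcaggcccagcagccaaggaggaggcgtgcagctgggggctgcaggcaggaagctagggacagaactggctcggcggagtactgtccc
The core promoter element TATAAA was searched first. The GC box GGGCGG followed, then the AP-1 motif TGANTCA, and last the Smad-binding letters CAGAC. Each was read on both strands, and no matches overlapped in these sequences. Fbn1 held 1 GC box and Emilin1 held 2 CAGAC matches, and neither held the other motifs. Over 32851 RefSeq windows of the same length, 12.4% held the core promoter element, 32.7% the GC box, 6.75% the AP-1 motif and 42.2% CAGAC. Of the 10 members, 4 had an entry in this table (Fbn1, Emilin1, Fbln1 and Fbln5). Fbln1 and Fbln5 had 2 windows each. The 2 windows of Fbln1 overlap and share the same 2 CAGAC matches, and 1 window also held 1 GC box. Of the windows of Fbln5, 1 held 2 GC boxes and no CAGAC, and the other held 2 CAGAC matches and no GC box.

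Fbn2 (gene 14119) was scarce, and its largest value came from a single library. Its estimated counts were 276, 18 and 31 in the AEW cheeks of mice 1, 2 and 3, against 14, 18 and 10 in the vehicle cheeks. As CPM these are 13.7, 0.945 and 1.60 in AEW skin, against 0.765, 0.972 and 0.556 in vehicle skin. The AEW cheek of mouse 1 was far above all other libraries, that of mouse 3 was above the 3 vehicle cheeks, and that of mouse 2 lay within their range. Mouse 1 had an AEW to vehicle ratio of 17.9 with bounds of 10.5 and 33.3. In mouse 2 it was 0.972, with bounds of 0.477 and 1.98, and in mouse 3 it was 2.88, with bounds of 1.38 and 6.59. The bounds come from exact binomial 95% intervals and so cover only counting error. Between the groups, without pairing cheeks by animal, the log2 fold change was 2.82 ± 1.03 (SE, edgeR adjusted p = 0.118). Without the AEW library of mouse 1 it was 0.72 (adjusted p = 0.249). A paired edgeR fit of the 3 mice gave 1.94 (adjusted p = 0.247), and the mean of their log2 ratios was 1.88 (SD 2.13). The adjusted p of Fbn2 ran from 0.00889 with DESeq2 to 0.537 over the alternatives tried. The same AEW library held the highest level of growing hair follicle markers, of which Lef1, a transcription factor of the hair matrix, stood at 23.0, 3.26 and 5.58 CPM in the AEW cheeks of mice 1, 2 and 3, against 2.73, 2.65 and 2.67 CPM in the vehicle cheeks. Msx2, a homeobox gene of the same region, stood at 40.0, 2.84 and 8.32 CPM in the AEW cheeks, against 4.37, 4.70 and 5.56 CPM in the vehicle cheeks. In mouse 2, where the Fbn2 ratio was 0.972, most of the list was lower in the AEW cheek. There the AEW to vehicle ratios were 0.0276 for Krt25, 0.0485 for Krt71, 0.0559 for Krt73, 0.0811 for Krt27 and 0.162 for Tchh. For Hoxc13, Msx2 and Lef1 they were 0.571, 0.603 and 1.23. The list is given in full after its values were seen. Of the 8 genes of that list edgeR called 0, with 1 at an unadjusted p under 0.05, and DESeq2 called 1 (Lef1). Their part in the Fbn2 value was not tested.

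**Figure D2:**
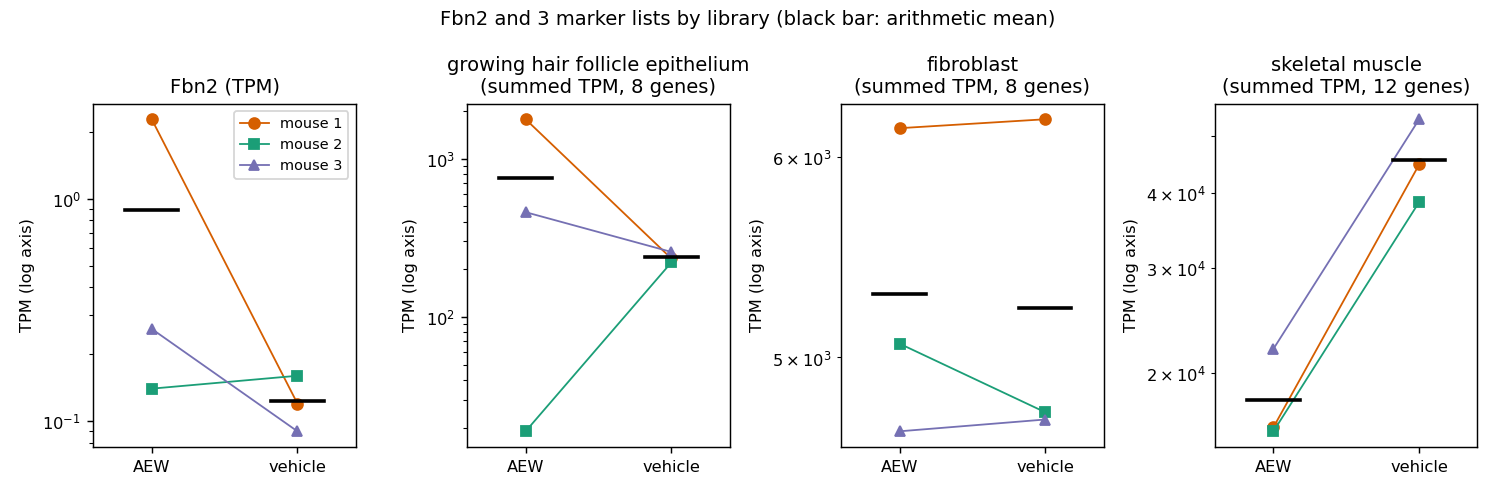
Fbn2 TPM and the summed TPM of 3 marker lists (log axes) in AEW and vehicle cheeks, with 1 coloured line per mouse and a black bar at the arithmetic mean. Fbn2 and the hair follicle list (1770 TPM) are both highest in the AEW cheek of mouse 1 and both lowest among AEW cheeks in mouse 2, while the fibroblast list overlaps and skeletal muscle is lower in every AEW cheek. In the AEW cheek of mouse 2 the hair follicle list (19.0 TPM) lies below all vehicle cheeks and Fbn2 (0.14 TPM) within their range.

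The 2 microfibril-associated glycoproteins among the members had fold changes of opposite sign, each short of the threshold. Mfap4 (gene 76293), a fibrinogen-like protein that binds elastin and fibrillin, stood at 153, 127 and 132 CPM in the AEW cheeks of mice 1, 2 and 3, against 114, 94.2 and 102 CPM in the vehicle cheeks. Each AEW library lay above all 3 vehicle libraries, a separation that 17.4% of all tested genes showed in this direction. Within mice 1, 2 and 3 the AEW to vehicle ratios were 1.34, 1.35 and 1.29. For Mfap4 the log2 fold change was 0.41 ± 0.11 (SE), its 95% interval running from 0.15 to 0.68 (edgeR adjusted p = 0.0578). With the mouse as a block the edgeR adjusted p was 0.057, and over the alternatives it ran from 0.0136 with DESeq2 to 0.371. Mapk7, a kinase gene annotated across from Mfap4 on the opposite strand and chosen after its values were seen, averaged 21.5 ± 0.81 CPM in AEW skin and 16.4 ± 2.41 CPM in vehicle skin (SD, n = 3 each). No source used here states strand-aware counting, so reads of the 2 genes in their overlap cannot be told apart. Genes annotated on the opposite strand also overlap Eln, Fbn1, Fbn2 and Lox, but these have no values in the deposited data. On the CPM scale Mfap4 and Mfap5 were the 2 members of 10 whose groups did not overlap, against 36.9% of all tested genes. In TPM the groups of Fbln5 did not overlap either, at 40.54 to 50.25 TPM in AEW skin and 34.05 to 40.24 TPM in vehicle skin.

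Mfap5 (gene 50530), also called MAGP-2, binds fibrillin microfibrils and growth factors of the TGF-beta family. It stood at 53.5, 54.1 and 49.7 CPM in the AEW cheeks of mice 1, 2 and 3, against 113, 62.1 and 77.6 CPM in the vehicle cheeks. All 3 AEW libraries lay below all 3 vehicle libraries, as they did for 19.5% of tested genes, and the vehicle libraries were the more spread of the 2 groups. The means were 52.4 ± 2.39 CPM in AEW skin and 84.1 ± 26.0 CPM in vehicle skin (SD, n = 3 each). Within mice 1, 2 and 3 the AEW to vehicle ratios were 0.474, 0.871 and 0.641. For Mfap5 the log2 fold change was -0.68 ± 0.21 (SE), its 95% interval running from -1.17 to -0.20 (edgeR adjusted p = 0.0746, and adjusted p from 0.017 with DESeq2 to 0.437 over the alternatives). It was -0.41 (adjusted p = 0.131) without the vehicle library of mouse 1 and -0.86 (adjusted p = 0.0414) without that of mouse 2, a fit that called 7.74% of all genes.

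Fibroblasts are the main source of both proteins in the dermis. Of the 8 fibroblast markers 1 was higher and 0 lower in the edgeR test, and their median log2 fold change was 0.39. The called gene was Pdgfra, a receptor of dermal fibroblasts, at 139 ± 13.6 CPM in AEW skin and 97.7 ± 9.13 CPM in vehicle skin (SD, n = 3 each; log2 fold change 0.51, edgeR adjusted p = 0.0352, and adjusted p = 0.0703 with the mouse as a block). It was not called when the AEW library of mouse 1 or 2, or any vehicle library, was left out (log2 fold change 0.44 to 0.57, adjusted p from 0.00164 with DESeq2 to 0.32 over all alternatives). Dpt, which encodes the matrix protein dermatopontin, had a log2 fold change of -0.55 (adjusted p = 0.162). The part of fibroblast content in the Mfap4 and Mfap5 values was not tested.

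The fibulins and emilin bridge elastin, microfibrils and cells. Fbln1 (gene 14114), an elastin-binding matrix and basement membrane protein, stood at 87.5, 100.4 and 83.0 CPM in the AEW cheeks of mice 1, 2 and 3, against 96.6, 75.6 and 82.6 CPM in the vehicle cheeks. Fbln5 (gene 23876), which is required for elastic fibre assembly in mice, stood at 70.0, 61.9 and 57.6 CPM in AEW cheeks, against 62.0, 50.4 and 56.8 CPM in vehicle cheeks. On the CPM scale the groups overlapped for both fibulins, although Fbln5 was higher in the AEW cheek of each mouse. The log2 fold change was 0.09 with a 95% interval from -0.20 to 0.38 for Fbln1 (edgeR adjusted p = 0.662), and 0.16 with an interval from -0.11 to 0.43 for Fbln5 (adjusted p = 0.378).

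Emilin1 (gene 100952), a glycoprotein at the interface of elastin and microfibrils, stood at 28.4, 21.5 and 22.5 CPM in the AEW cheeks of mice 1, 2 and 3, against 21.8, 15.5 and 16.4 CPM in the vehicle cheeks. The vehicle cheek of mouse 1 lay just above the AEW cheek of mouse 2 and below that of mouse 3, so the groups overlapped. Within mice the ratios were close, at 1.30, 1.39 and 1.37. For Emilin1 the log2 fold change was 0.43 ± 0.17 (SE), its 95% interval running from 0.03 to 0.84 (edgeR adjusted p = 0.141, and adjusted p = 0.0715 with the mouse as a block). In a paired fit of mice 2 and 3 only, Emilin1, Mfap4 and Mfap5 were called, with adjusted p of 0.0283, 0.0248 and 0.0454, where 23.1% of all genes were called. Over all alternatives the adjusted p of Emilin1 ran from 0.0283 to 0.411.

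Neither of the lysyl oxidases, copper enzymes that cross-link elastin and collagen, was called. Lox (gene 16948), the founding member of this family, stood at 63.4, 43.8 and 41.3 CPM in the AEW cheeks of mice 1, 2 and 3, against 46.0, 35.5 and 39.5 CPM in the vehicle cheeks. Loxl1 (gene 16949), the family member that mice need to maintain elastic fibres, stood at 98.7, 104.7 and 97.1 CPM in AEW cheeks, against 140.5, 90.7 and 95.3 CPM in vehicle cheeks. Lox was higher in the AEW cheek of every mouse, and Loxl1 was lower in mouse 1 and higher in mice 2 and 3, with overlap between groups in both cases. The log2 fold change of Lox was 0.29 with a 95% interval from -0.14 to 0.73 (edgeR adjusted p = 0.321), and it was 0.066 (adjusted p = 0.749) without the AEW library of mouse 1. That of Loxl1 was -0.12 with an interval from -0.52 to 0.28 (adjusted p = 0.673), and it was 0.11 (adjusted p = 0.539) without the vehicle library of mouse 1.

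**Figure D3:**
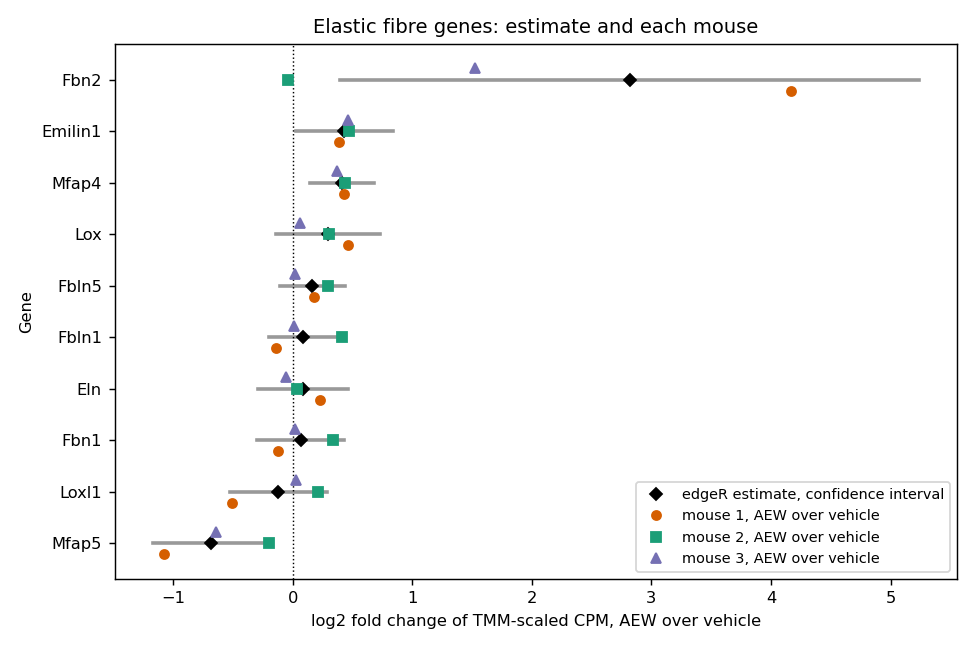
Log2 fold change of TMM-scaled CPM (horizontal axis, AEW over vehicle) for each elastic fibre gene (vertical axis), with the edgeR estimate as a diamond, its 95% interval as a grey bar and 1 coloured point per mouse. The 3 mice lie close together for Mfap4 (0.43, 0.43 and 0.37) and Emilin1 (0.38, 0.47 and 0.46) and far apart for Fbn2 (4.17, -0.041 and 1.53).

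On the length-scaled TPM scale the members were ordered much alike on both sides. In AEW skin Mfap4 led at 156 ± 21.2 TPM, followed by Eln at 72.7 ± 15.3, Mfap5 at 60.4 ± 2.79, Fbln1 at 56.5 ± 3.07, Loxl1 at 51.0 ± 0.787, Fbln5 at 43.9 ± 5.51, Fbn1 at 36.9 ± 3.65, Lox at 18.2 ± 5.30, Emilin1 at 11.8 ± 2.26 and Fbn2 at 0.893 ± 1.20 TPM (SD, n = 3). In vehicle skin the order was Mfap4 at 112 ± 8.70 TPM, Mfap5 at 92.8 ± 27.1, Eln at 65.7 ± 6.95, Loxl1 at 53.1 ± 12.5, Fbln1 at 50.5 ± 5.45, Fbln5 at 37.3 ± 3.11, Fbn1 at 33.9 ± 5.92, Lox at 14.3 ± 1.48, Emilin1 at 8.38 ± 1.45 and Fbn2 at 0.123 ± 0.0351 TPM (SD, n = 3). Neighbours whose libraries overlapped were Eln with Mfap5, Mfap5 with Fbln1, and Fbln5 with Fbn1 in AEW skin. In vehicle skin the libraries of each neighbour overlapped from Mfap4 down to Fbln1, as did those of Fbln5 and Fbn1. The 10 members together made up 572, 476 and 477 TPM in the AEW cheeks of mice 1, 2 and 3, against 544, 420 and 442 TPM in the vehicle cheeks.

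Ratios between members within a library do not depend on library scaling. The ratio of Mfap5 to Mfap4 TPM was 0.356, 0.432 and 0.382 in the AEW cheeks of mice 1, 2 and 3, against 1.01, 0.670 and 0.771 in the vehicle cheeks. That of Mfap5 to Fbn1, whose product it binds, was 1.56, 1.62 and 1.75 in AEW cheeks, against 3.02, 2.34 and 2.76 in vehicle cheeks. Set against Mfap2, which encodes the related glycoprotein MAGP-1, Mfap5 stood at 0.634, 1.25 and 1.10 in AEW cheeks, against 2.76, 1.70 and 2.37 in vehicle cheeks. All 3 ratios were lower in every AEW library than in any vehicle library. They share Mfap5, whose TPM was lower in AEW skin without overlap, so they are not separate observations. The TPM of Mfap4 and of Mfap2 was higher in AEW skin without overlap, so the ratios to these genes had to separate. The ratios were chosen after the values were seen and were not tested.

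The ratio of Fbn2 to Fbn1 TPM was 0.0559, 0.00384 and 0.00775 in the AEW cheeks of mice 1, 2 and 3, against 0.00295, 0.00537 and 0.00289 in the vehicle cheeks. Fbn2 was thus a small share of fibrillin transcripts in every library, and the groups overlapped. The difference in mean log2 ratio was 1.73 (two-sided exact permutation test without pairing cheeks by animal, p = 0.2). With 3 against 3 libraries that test cannot give less than 0.1. A paired exact test, which swaps the 2 cheeks within each mouse, gave p = 0.5. Without the AEW library of mouse 1 the difference was 0.61. The ratio of Lox plus Loxl1 to Eln TPM was 0.853, 0.943 and 1.11 in AEW cheeks, against 1.21, 0.824 and 1.05 in vehicle cheeks, with overlap between the groups.

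**Figure D4:**
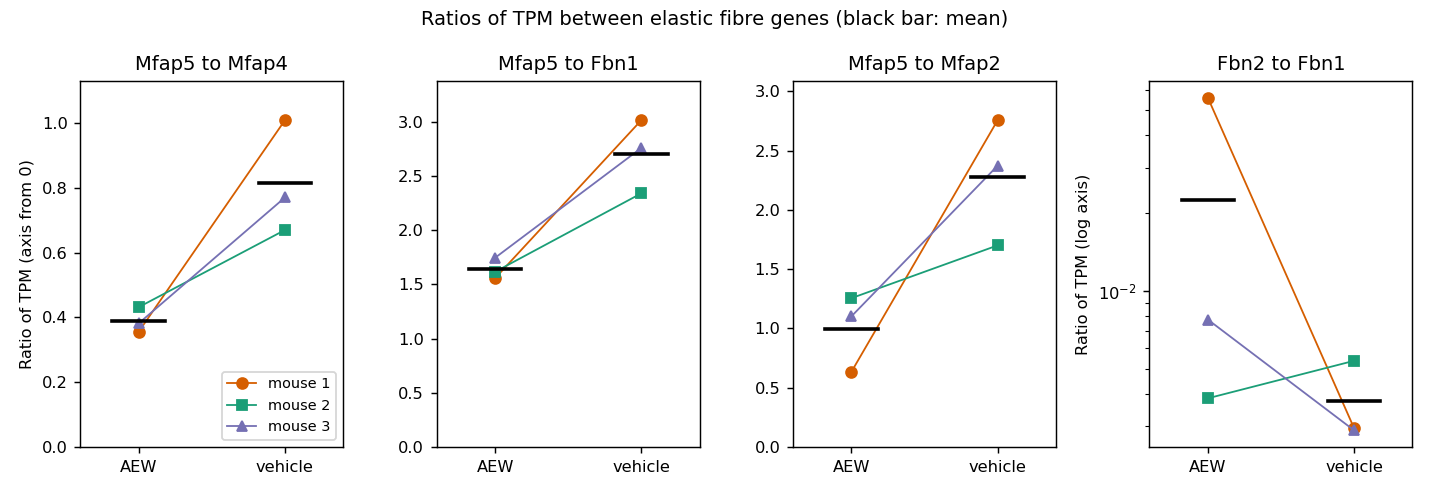
Ratios of TPM between elastic fibre genes in AEW and vehicle cheeks, with 1 coloured line per mouse and a black bar at the mean. The 3 ratios of Mfap5 (axes from 0) are lower in every AEW cheek than in any vehicle cheek. The Fbn2 to Fbn1 ratio (log axis) is highest in the AEW cheek of mouse 1 (0.0559). In that of mouse 3 (0.00775) it lies above the vehicle cheeks, and in that of mouse 2 (0.00384) within their range.

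Among 25 further genes of microfibrils and elastic fibres, all tested, 1 was higher and 1 lower in the edgeR test. That is 8% of the list, below the 11.6% of all tested genes. With the mouse as a block 0 of the list were called, against 5.88% of all tested genes. The median log2 fold change of the 25 genes was 0.01, equal to that of all tested genes at this precision. Adamts17, a protease linked to fibrillin microfibrils, stood at 6.07, 2.10 and 2.02 CPM in the AEW cheeks of mice 1, 2 and 3, against 0.546, 0.810 and 0.834 CPM in the vehicle cheeks. Its log2 fold change was 2.21 ± 0.52 (SE, edgeR adjusted p = 0.0399, and adjusted p = 0.102 with the mouse as a block). Ltbp4, a latent TGF-beta binding protein needed for elastic fibre assembly in mice, stood at 234, 224 and 326 CPM in AEW cheeks, against 462, 371 and 423 CPM in vehicle cheeks. Its log2 fold change was -0.68 ± 0.17 (SE, edgeR adjusted p = 0.047, and adjusted p = 0.0643 with the mouse as a block). For both genes all 3 AEW libraries lay on 1 side of all 3 vehicle libraries, as they did for 36.9% of all tested genes. Neither was called when the AEW library of mouse 2 or any vehicle library was left out, with log2 fold changes of 2.04 to 2.46 for Adamts17 and -0.76 to -0.58 for Ltbp4. Without the AEW library of mouse 1 Adamts17 was at 1.48 and still called (adjusted p = 0.0264), and on the log2(TPM + 1) scale it was at 0.66 (limma adjusted p = 0.1). Without the same library Ltbp4 was at -0.62 and not called (adjusted p = 0.072). Over all alternatives the adjusted p ran from 0.00157 to 0.357 for Adamts17 and from 0.00196 to 0.252 for Ltbp4.

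Of the other partners, Adamtsl4 and Adamtsl5, ADAMTS-like proteins that bind fibrillin microfibrils, had log2 fold changes of -0.76 and -0.32 (edgeR adjusted p = 0.0533 and 0.059). Mfap2 and Vcan were chosen after their values were seen. Mfap2 stood at 56.9, 29.0 and 30.4 CPM in the AEW cheeks of mice 1, 2 and 3, against 27.5, 24.5 and 22.1 CPM in the vehicle cheeks (adjusted p = 0.148). Vcan, which encodes the proteoglycan versican, stood at 144, 60.9 and 55.8 CPM in AEW cheeks, against 56.3, 40.5 and 40.0 CPM in vehicle cheeks (adjusted p = 0.144). For both genes the AEW cheek of mouse 1 was the highest of the 6. The same library was the highest for the members Eln, Fbn2, Fbln5, Emilin1, Lox and Mfap4, but not for Fbn1, Fbln1, Loxl1 and Mfap5. It also held the most hair follicle transcripts, and their part in these values was not tested.

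**Figure D5:**
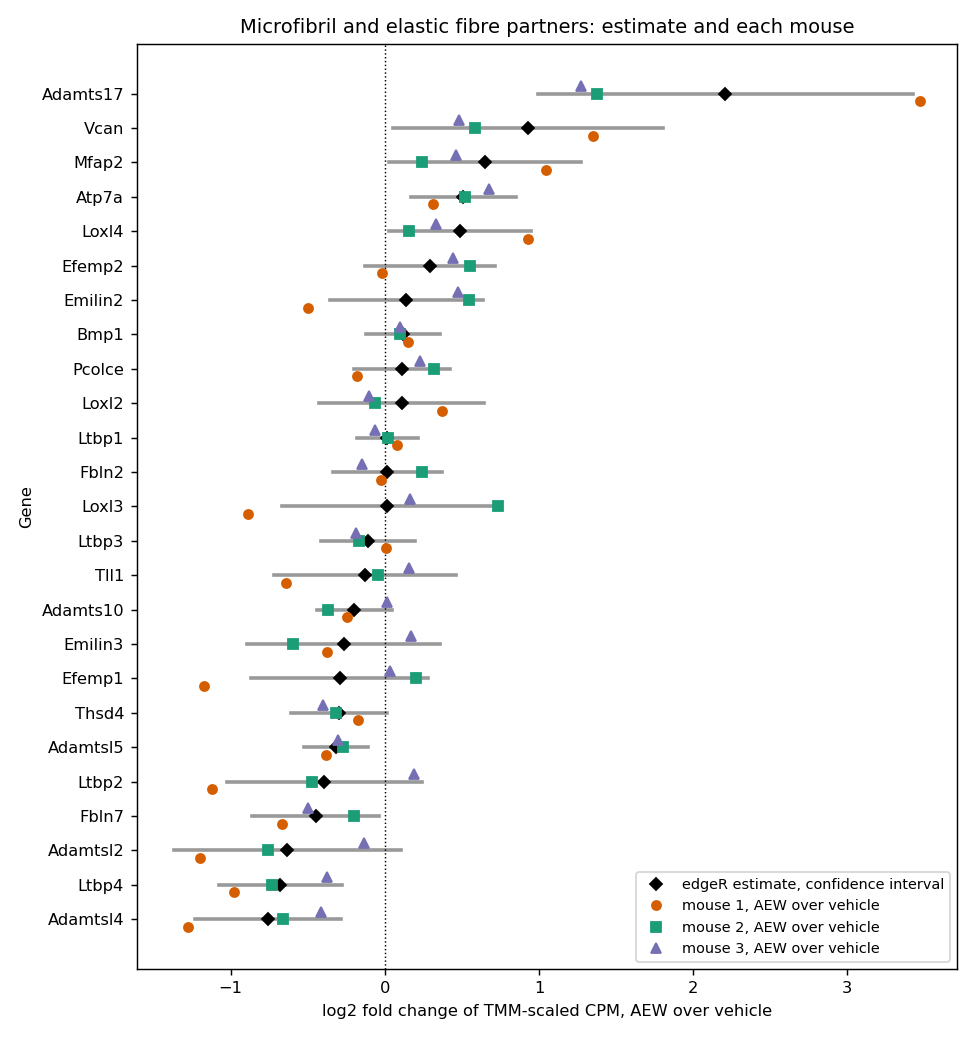
Log2 fold change of TMM-scaled CPM (horizontal axis, AEW over vehicle) for 25 partners of microfibrils and elastic fibres (vertical axis), with the edgeR estimate as a diamond, its 95% interval as a grey bar and 1 coloured point per mouse. Adamts17 (2.21) and Ltbp4 (-0.68) are the 2 called genes, and mouse 1 lies farthest from 0 for both.

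Of 8 enzymes able to cleave elastin 6 were tested, and edgeR called 0, with 1 at an unadjusted p under 0.05 (Ctsk, the gene that DESeq2 called). Mmp7 had 0 counts in all 6 libraries, and Elane, neutrophil elastase, had between 1 and 7. The median log2 fold change of the 6 was 0.50. Ctsk, a collagen- and elastin-cleaving cathepsin, stood at 154, 209 and 102 CPM in the AEW cheeks of mice 1, 2 and 3, against 95.0, 92.2 and 70.7 CPM in the vehicle cheeks, without overlap (log2 fold change 0.85, edgeR adjusted p = 0.0748). Mmp2, Ctsl and Mmp12 had log2 fold changes of 0.31, 0.68 and 0.57 (adjusted p = 0.216, 0.234 and 0.437). In the paired fit of mice 2 and 3 only, all 6 were called as higher, where 23.1% of all genes were called. In mouse 1, which that fit leaves out, 5 of the 6 were lower in the AEW cheek, with AEW to vehicle ratios of 0.407 for Mmp9, 0.516 for Ctss, 0.557 for Mmp12, 0.731 for Ctsl and 0.984 for Mmp2. The macrophage markers Cd68, Csf1r and Lyz2 were likewise below 1 in mouse 1 and above it in mice 2 and 3. Their ratios in mice 1, 2 and 3 were 0.504, 2.83 and 2.95 for Cd68, 0.534, 1.71 and 1.68 for Csf1r, and 0.355, 1.94 and 1.59 for Lyz2. Csf1r and Lyz2 were chosen after their values were seen, and the part of macrophage content in the enzyme values was not tested. The 6 immune markers together summed to 672, 1489 and 1154 TPM in the AEW cheeks of mice 1, 2 and 3, against 1619, 777 and 636 TPM in the vehicle cheeks. TGF-beta is stored in latent form on fibrillin microfibrils. Of 6 TGF-beta ligands and receptors, all tested, edgeR called 0, with 2 at an unadjusted p under 0.05, and DESeq2 called 1 (Tgfbr3), with a median log2 fold change of -0.093. Tgfbr3, a co-receptor, and the ligand Tgfb2 had log2 fold changes of -0.35 and -0.62 (adjusted p = 0.0633 and 0.103), and Tgfb1 and Tgfbr1 of 0.24 and -0.12 (adjusted p = 0.338 and 0.598).

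Other cell types of skin were followed with marker lists. Of 12 skeletal muscle markers 0 were higher and 11 lower, with a median log2 fold change of -1.34, and Mylpf and Pvalb, a myosin light chain and a calcium buffer of fast fibres, fell by 1.63 and 1.51. Of 7 keratinocyte markers 2 were higher, Krt1 and Krt14, keratins of the suprabasal and basal epidermis, at log2 fold changes of 1.89 and 0.97. Krt15, a basal and hair follicle keratin chosen after its values were seen, had a log2 fold change of -0.76 (edgeR adjusted p = 0.0506), and DESeq2 called it as lower. Of 9 smooth muscle and pericyte markers 2 were lower, the contractile genes Myh11 and Cnn1 at -0.77 and -1.01, and with the mouse as a block 1 was (Myh11). Of 6 endothelial markers 1 was lower (Emcn at -0.60), and Pecam1 stood at -0.50. All 6 had a negative log2 fold change with an unadjusted p under 0.05, against 30.8% of all tested genes in either direction. Their sum was 118 to 136 TPM in AEW skin and 157 to 204 TPM in vehicle skin, without overlap. Of 6 adipocyte markers 1 was lower (Adipoq at -0.94) and 0 with the mouse as a block, and Fabp4 stood at -0.74. Of 5 tendon markers 1 was lower (Thbs4 at -0.87), and Scx stood at -0.67. DESeq2 called 3 smooth muscle and pericyte, 6 endothelial, 4 adipocyte and 2 tendon markers as lower. It called 18.6% of the genes it tested in either direction. In the cartilage and immune lists edgeR called 0, with 1 gene of each at an unadjusted p under 0.05. Of the 4 cartilage markers only 2 were tested. The others were Col2a1, with 2 to 11 counts in each library, and Matn3, with 0 or 1. DESeq2 called Acan, the cartilage proteoglycan aggrecan, with an edgeR log2 fold change of 3.82 (edgeR adjusted p = 0.0617) and 3.00 in the paired fit (adjusted p = 0.175). Acan stood at 15.1, 0.998 and 2.64 CPM in the AEW cheeks of mice 1, 2 and 3, against 0.219, 0.648 and 0.445 CPM in the vehicle cheeks, and was highest in the AEW library of mouse 1. Comp, Cd3e and Cd68, the other genes of these lists with the smallest p, had log2 fold changes of -0.78, -0.76 and 0.72. The smooth muscle list, of cells that also make elastin, summed to 298 to 421 TPM in AEW skin and 447 to 530 TPM in vehicle skin, without overlap. Its part in the elastic fibre values was not tested.

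As a description, genes were ranked by how closely their log2(CPM + 1) followed a member over the 6 libraries, which share the contrast between cheeks, out of 13304 candidates. Fbn2 was followed most closely by Fgd1, Stmn1, Smarcd1, Cdk5rap2 and Mcm8, with Pearson r from 0.992 to 0.995. Each of these genes was highest in the AEW cheek of mouse 1. Fgd1 stood at 16.4 CPM there and from 7.78 to 9.56 CPM in the other libraries. Smarcd1 stood at 30.7 CPM there and from 21.5 to 23.8 CPM elsewhere. A single library thus weighs heavily in these r values, which were not computed without it. Stmn1, which encodes the microtubule regulator stathmin, stood at 257, 91.8 and 101 CPM in the AEW cheeks of mice 1, 2 and 3, against 78.1, 93.0 and 84.9 CPM in the vehicle cheeks, and like Fbn2 it was highest in the AEW cheek of mouse 1. Eln was followed by Ublcp1, Smndc1, Mtrex, Rpl15 and Hmgn5 (r from 0.975 to 0.988), and Fbn1 by Col14a1, Cox8a, Tph1, Capn2 and Ugdh (r from 0.963 to 0.986). Col14a1, a collagen that binds to fibril surfaces, stood at 80.4, 83.4 and 70.7 CPM in AEW cheeks, against 88.0, 65.7 and 70.6 CPM in vehicle cheeks. Among the members themselves, Emilin1 and Mfap4 were the most alike pair (r = 0.963) and Mfap4 and Mfap5 the least (r = -0.473).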

How the data were processed

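Per the file headers, the authors deposited estimated counts, FPKM and TPM for each library and gene. The submitters' processing notes name HISAT and GRCm39. No source used here gives the counting tool or annotation. Estimated counts, fractional for 53.9% to 57.2% of genes, were rounded. filterByExpr at a minimum count of 10 left 15109 of 19309 genes, scaled with TMM factors from 0.973 to 1.05. Groups were compared with the edgeR 4.0.16 quasi-likelihood test in R 4.3.3, with Benjamini-Hochberg adjustment over all tested genes at 0.05, and log2 fold changes are AEW over vehicle. The standard error is the fold change divided by the square root of F. DESeq2 1.42.0 on the counts, and limma 3.58.1 on log2 of the deposited TPM plus 1 or 0.1, were alternatives. Both were fitted without the mouse. The deposited FPKM served as an alternative for the Fbn2 to Fbn1 ratio. The edgeR fit was tested on simulated data.

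Both cheeks of a mouse carry its number, so libraries are paired by animal. Deviations from group means correlated at -0.276, -0.106 and -0.130 within mice 1, 2 and 3, and between -0.135 and 0.218 across mice. The mouse was left out of the reported fit, and the paired fit was run beside it. Replicates were different mice, and every pair of libraries in a group differed beyond sampling noise (chi-square over degrees of freedom of 19.1 or more).

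Members, gene lists and tests were chosen with earlier results of these data known. All members are named, as are the called or 4 smallest-p genes of each pathway list and the 2 smallest-p genes of each marker list, except 1 list that is not reported here. For Eln, Fbn1 and Fbn2, the 5 most correlated genes are named among those whose log2 CPM averaged 1 or more and whose symbol is not a predicted one. Gene overlaps were read from GENCODE, whose build differs from the files', so no gene coordinates are given.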

Additional observations from a re-analysis of the deposited data

How the results depend on the processing

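Of 169 recomputed member fold changes, 154 kept their direction and side of the threshold, 7 passed it and 8 changed sign, all of these 8 with an adjusted p of at least 0.424. Eln became -0.068 without AEW replicate 1, -0.00103 without vehicle replicate 3 and -0.010 without replicate 1 in both groups with the replicate block. Fbn1 became -0.029 without vehicle replicate 2 and -0.054 without replicate 2 in both groups with the replicate block, where Fbln1 became -0.068. Loxl1 became 0.11 without vehicle replicate 1 and 0.12 without replicate 1 in both groups with the replicate block. Leaving out 1 library or mouse moved Eln between -0.068 and 0.23, Fbn1 between -0.054 and 0.23 and Loxl1 between -0.24 and 0.12. The cause was not tested. Fbn2 was not tested under the filter of 1 CPM in 3 libraries.

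The paired fit, with the replicate block, called 888 genes against 1760, and 0 microfibril partners against 2, and it changed no other pathway count. DESeq2 called 2870 genes, 3 elastic fibre members, 6 partners, 1 elastin-cleaving enzyme and 1 gene of the TGF-beta list. Upper-quartile scaling called 4 partners, and limma on log2 TPM called 0 with either pseudocount. Fits that left out 1 library called from 140 to 2238 genes (433 and 1000 without AEW replicates 2 and 3, 181 and 140 without vehicle replicates 1 and 3). They called 0 to 1 members (Mfap5, without vehicle replicate 2), 0 to 3 partners, 0 to 1 elastin-cleaving enzymes and 0 to 1 TGF-beta genes. With the replicate block, leaving out mouse 1 called 3510 genes, 3 members, 9 partners, 6 enzymes and 4 TGF-beta genes, leaving out mouse 2 called 391 genes and leaving out mouse 3 called 0, with 0 partners in both of these. Each of these 3 fits rests on 2 mice. The Fbn2 to Fbn1 difference of 1.73 ran from 0.61 to 2.54 when 1 library was left out, and the mean within-mouse Fbn2 log2 ratio of 1.88 ran from 0.74 to 2.85 when 1 mouse was left out. Fbn2 had 10 to 31 counts in 5 of 6 libraries, so its ratios in mice 2 and 3 carry wide counting error.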
